A study of Homo sapiens with 6 samples.

Results

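Calcium channels, calcium pumps and the store-operated entry machinery were examined in SW480, a human colorectal adenocarcinoma cell line, after knockdown of the transcription factor ZEB1. The genes were matched by name, in a set chosen with earlier results of these data known. The names covered the voltage-gated channel subunits (CACNA1, CACNA2D, CACNB and CACNG families), the IP3 receptors ITPR1 to ITPR3, and STIM1 and STIM2. They also covered ORAI1 to ORAI3, the pump families ATP2A, ATP2B and ATP2C, and MCU. Of 44 such names, 41 matched a row among the 32029 genes in the deposited tables, and CACNG2, CACNG3 and CACNG5 matched none. Of these 41 members, 26 passed a filter on low counts and were tested, and 15 lay below it.

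RNA was sequenced from 6 cultures of unmodified SW480 cells, an established human colorectal cancer line, 48 h after transfection. In the siControl group, 3 cultures received a control siRNA (siNC in the labels), and in the siZEB1 group 3 cultures received siRNA against ZEB1. The siRNA sequences are not given in the sources used here, so the knockdown is known only by its target. The study describes the 3 cultures of a group as biological replicates. Separate passages or days are not named in the sources used here, so p-values measure the spread between these cultures.

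Calcium works as a messenger because cells keep it low in the cytosol and high outside and in the endoplasmic reticulum (ER). IP3, made by phospholipase C at the plasma membrane, opens IP3 receptors that let calcium out of the ER. When the ER empties, STIM proteins in its membrane sense the loss and open ORAI channels at the cell surface, which is store-operated entry. The ATP2A pumps (SERCA) refill the ER, the ATP2B pumps (PMCA) push calcium out of the cell, the ATP2C pumps (SPCA) load the Golgi, and MCU admits calcium to mitochondria. Voltage-gated channels are best known from nerve and muscle, whereas store-operated entry is the usual route in epithelial cells.

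Total counts ranged from 19040636 to 22357633 per culture, of which the members took 0.108% to 0.131%. ZEB1 had 1247, 1276 and 908 reads in the siControl cultures against 136, 132 and 162 after siZEB1, a log2 fold change of -2.85 (SE 0.11) on which the groups did not overlap. Within siControl, culture 3 differed from cultures 1 and 2 by 9.58 and 7.17 times the sampling noise of counts (chi-square over degrees of freedom), against 3.61 between cultures 1 and 2. Within siZEB1, culture 3 differed from the others by 4.95 and 7.01 times, against 2.27. The epithelial keratins KRT8 and KRT18 were abundant in all cultures, at 3455 and 1418 CPM (reads scaled to a common library size by TMM) with siControl, whereas the colon markers CDH17, GPA33, LGALS4 and CEACAM5 averaged below 0.5 CPM each and CDX1 had no row. Of the 7 epithelial markers tested, EPCAM, KRT19 and VIL1 were higher, at 3.05, 1.62 and 2.34 on the log2 scale, and CDX2 was lower, at -1.30, with siZEB1, and their part in the changes below was not tested. Among markers of excitable cells, the neuroendocrine list, with 5 of 8 genes listed, summed to 15.6 to 17.3 CPM with siControl and 14.3 to 15.6 with siZEB1. Of the 4 tested, SYT1 was called lower, at -0.64. The muscle list, with 6 of 8 genes listed, summed to 27.2 to 33.2 and 25.0 to 29.1 CPM, nearly all from TNNT1 and DES. Of these, DES was called lower, at -0.41, by edgeR's test but not by DESeq2. The fibroblast list, with 7 of 8 genes listed, summed to 13.4 to 15.3 CPM over both groups and held 1 called gene. This was PDGFRB, which was higher, at 0.42, by edgeR's test but not by DESeq2. The leukocyte list, with 6 of 8 listed, and the endothelial list, with 3 of 6 listed, stayed below 3 CPM in each culture with none called by edgeR's test, by DESeq2 or at an unadjusted p under 0.05.

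More of the calcium channel and pump genes tested were lower than higher with siZEB1. The 6 largest falls among called members were in the T-type pores CACNA1G and CACNA1H, the ER pump ATP2A3, the beta subunits CACNB3 and CACNB4 and the plasma membrane pump ATP2B4. The ER pumps ATP2A1 and ATP2A2 were called higher. Fold changes are given as log2 ratios of siZEB1 over siControl. With siZEB1, 16 of the 26 tested members were called lower and 2 higher, at an adjusted p under 0.05 in edgeR's quasi-likelihood test with Benjamini-Hochberg adjustment over the 14996 genes tested. That is 61.5% lower and 7.69% higher, where 21.2% of all tested genes were called lower and 19.0% higher. The median log2 fold change of the tested members was -0.37, and that of all tested genes was -0.0055. The groups did not overlap at 19 of the 26 members, 73.1%, beside 49.5% of all tested genes. CACNA1G, CACNA1H, CACNB4, ATP2A3 and CACNA2D2 passed the filter through their siControl reads alone, and CACNB2 through its siZEB1 reads alone, so these counts and medians are a description of the genes that passed. With at least 10 reads required in every culture, 20 members were tested, of which 12 were lower and 2 higher, beside 22.4% and 20.3% of all genes tested under that filter. At a fold change over 1.5 and an unadjusted p under 0.05, 9 members were lower and 1 higher, where 9.35% and 7.21% of all tested genes were. With p under 0.001 at the same fold, 7 were lower and 0 higher in edgeR's test, beside 6.70% and 4.52% of all tested genes. At an adjusted p under 0.01 the counts were 13 and 0, beside 15.6% and 13.3%. The 2 genes called higher at an adjusted p under 0.05, ATP2A1 and ATP2A2, did not pass the last 2 rules, and at an unadjusted p under 0.05 alone 3 members were higher, the other being ITPR2. DESeq2 called 14 lower and 1 higher, beside 19.0% and 17.8% of all tested genes. The called members that lost their call with DESeq2 were CACNB1, ORAI1 and ATP2A1.

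**Figure D1:**
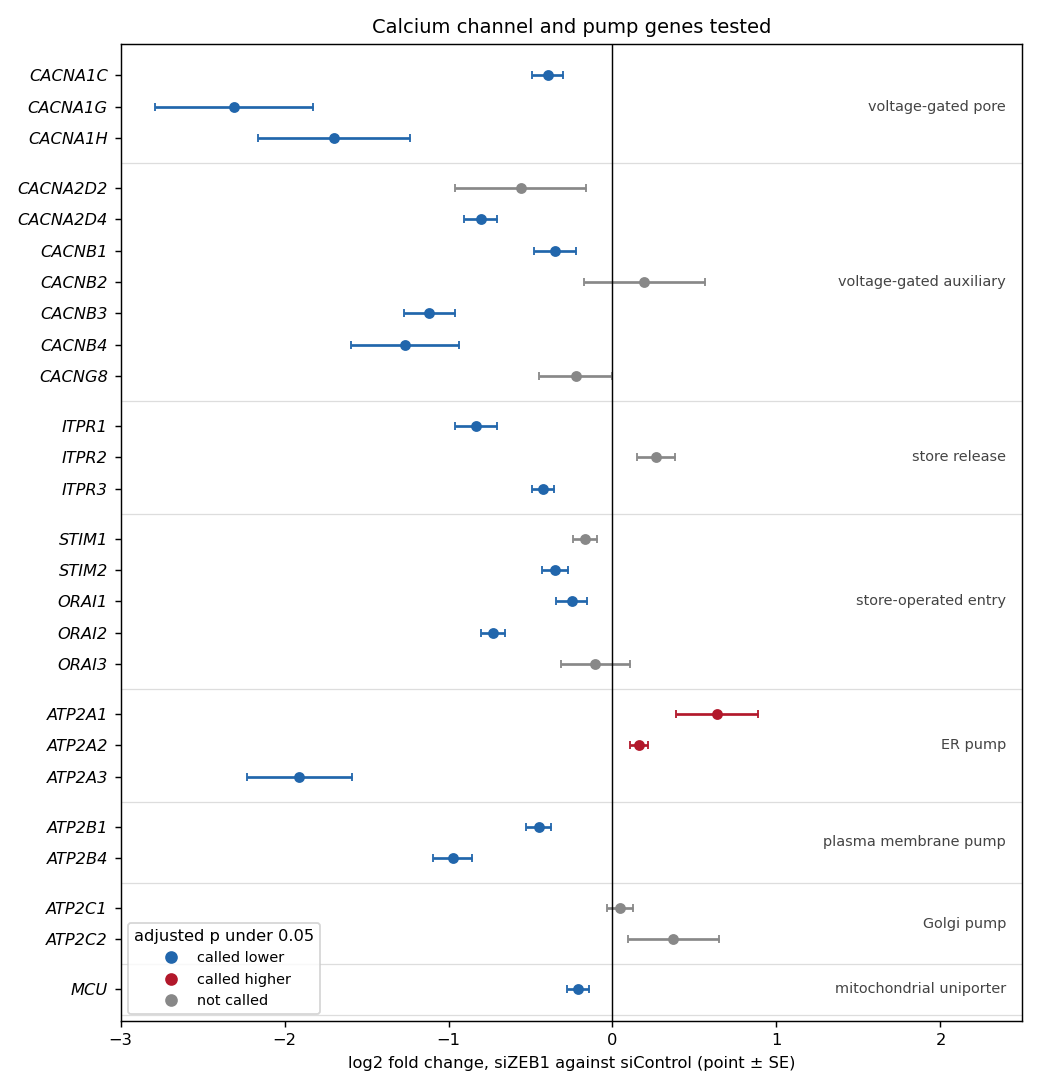
Log2 fold change of siZEB1 against siControl (x axis) for the 26 tested members (y axis), grouped by role. Points are estimates with their SE, blue where called lower, red where called higher and grey where not called; the estimates range from -2.31 for CACNA1G to 0.64 for ATP2A1, and the 2 red points are both ER pumps.

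The pore subunits of voltage-gated channels form the calcium-selective passage and sense membrane potential. Only 3 of the 10 CACNA1 genes were tested, and all 3 were called lower with siZEB1, beside 21.2% of all tested genes. CACNA1G and CACNA1H passed the filter through their siControl reads alone, so this count only describes the genes that passed. CACNA1C (chr12:1970786-2697950, GRCh38) encodes the L-type pore best known from heart and smooth muscle. It had 336, 375 and 334 reads in the siControl cultures against 253, 239 and 231 after siZEB1. It fell by 0.40 on the log2 scale (SE 0.094, adjusted p = 0.00281), from 16.6 ± 0.769 to 12.6 ± 0.689 CPM (± SD, n = 3 per group), and the groups did not overlap.

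CACNA1G (chr17:50561068-50627474) and CACNA1H (chr16:1153121-1221772) encode T-type pores, which open at low voltage. CACNA1G had 27, 14 and 15 reads in the siControl cultures against 3, 4 and 3 after siZEB1, a log2 ratio of -2.31 ± 0.48 (SE) with adjusted p = 9.80e-04. CACNA1H had 18, 20 and 13 reads in the siControl cultures against 8, 4 and 2 after siZEB1, a log2 ratio of -1.70 ± 0.46 (SE) with adjusted p = 0.00733. Every siControl culture lay above every siZEB1 culture for both genes, but neither reached 1 CPM on average, so their fold changes rest on few reads.

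Of the other 7 pores, CACNA1E (R-type) had 9, 8 and 8 reads in the siControl cultures against 1, 3 and 1 after siZEB1. With no filter on low counts its log2 fold change was -2.12 (adjusted p = 0.0319), and it was the member below the filter that passed in that fit. CACNA1I, the remaining T-type pore, had 1, 4 and 2 reads in the siControl cultures against 5, 7 and 4 after siZEB1, with an adjusted p of 0.354 in the same fit. CACNA1A, CACNA1B, CACNA1D, CACNA1F and CACNA1S had between 0 and 5 reads in each culture, at which depth no difference was detectable. CACNA1S had 2, 3 and 0 reads with siControl and 0 in each siZEB1 culture.

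**Figure D2:**
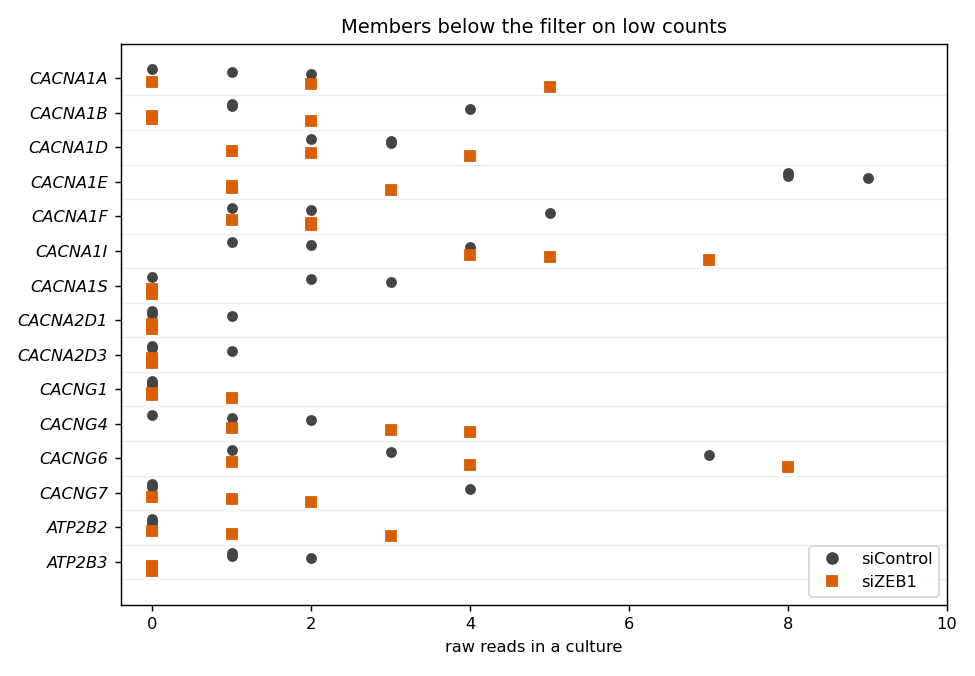
Raw reads in each culture (x axis) for the 15 members below the filter (y axis), with siControl as circles and siZEB1 as squares. CACNA1E stands out with 8 to 9 reads in each siControl culture and 1 to 3 in each siZEB1 culture; for the other genes the groups overlap or meet, or rest on 4 reads or fewer in a culture.

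Auxiliary subunits carry the pores to the membrane and tune their gating. CACNA2D4 (chr12:1791957-1918836), an alpha2delta subunit, had 326, 354 and 283 reads in the siControl cultures against 159, 167 and 175 after siZEB1. Its level went from 15.3 ± 0.566 to 8.75 ± 0.365 CPM (± SD, n = 3 per group), a log2 ratio of -0.80 ± 0.099 (SE) with adjusted p = 6.17e-06. These groups stood far apart relative to their spread. CACNA2D2 was not called at -0.56 (SE 0.40, adjusted p = 0.282), and CACNA2D1 and CACNA2D3 each had 1 read in all.

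The beta subunits bind the pores from the cytosol. CACNB3 (chr12:48813794-48828941) had 151, 213 and 176 reads in the siControl cultures against 87, 73 and 66 after siZEB1, a log2 ratio of -1.12 ± 0.15 (SE) with adjusted p = 2.10e-05. CACNB4 (chr2:151832768-152099475) had 52, 31 and 31 reads in the siControl cultures against 9, 20 and 14 after siZEB1, a log2 ratio of -1.26 ± 0.33 (SE) with adjusted p = 0.00547. CACNB1 (chr17:39173456-39197703), known from skeletal muscle, had 174, 184 and 185 reads against 138, 139 and 111, a log2 ratio of -0.35 ± 0.13 (SE) with adjusted p = 0.0389. The groups did not overlap for any of these genes. The CACNB1 call was lost with siControl culture 2, siControl culture 3, siZEB1 culture 1 or siZEB1 culture 3 left out (adjusted p = 0.0554, 0.114, 0.0504 and 0.167). CACNB2 had 27, 25 and 7 reads in the siControl cultures against 18, 23 and 20 after siZEB1 and was not called at 0.19 (SE 0.37), a value that became -0.16 without siControl culture 3. Exons of other genes on the opposite strand overlap 13.0% of the CACNB2 exonic bases and 5.74% of those of CACNB1, and exons of a gene on the same strand overlap 5.98% of those of CACNB4.

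Of the gamma family, CACNG8 alone was tested, with 42 to 56 reads with siControl and 27 to 45 with siZEB1, and was not called at -0.23 (SE 0.22). CACNG1, CACNG4, CACNG6 and CACNG7 had 0 to 8 reads in each culture.

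The IP3 receptors release calcium from the ER. ITPR3 (chr6:33620365-33696574) had 4503, 5598 and 4392 reads in the siControl cultures against 3272, 3087 and 3455 after siZEB1. It fell from 230 ± 19.2 to 172 ± 10.1 CPM (± SD, n = 3 per group), a log2 ratio of -0.42 ± 0.069 (SE) with adjusted p = 1.05e-04. Exons of UQCC2 on the opposite strand overlap 10.4% of its exonic bases, and whether the counting used strand is not stated. ITPR1 (chr3:4493345-4847840) had 401, 400 and 286 reads in the siControl cultures against 186, 149 and 218 after siZEB1, a log2 ratio of -0.83 ± 0.13 (SE) with adjusted p = 7.01e-05. For both receptors no siControl culture was as low as any siZEB1 culture.

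ITPR2 (chr12:26336515-26833198) had an estimate on the other side of 0, and it is given in full after its values were seen. It had 1156, 1280 and 750 reads in the siControl cultures against 1032, 1122 and 1306 after siZEB1. Its log2 fold change of 0.27 (SE 0.11, adjusted p = 0.0753) was not called, and the groups overlapped, with siControl cultures 1 and 2 near siZEB1 cultures 1 and 2. Without siControl culture 3, which was the lowest, it was 0.11 (adjusted p = 0.288), and without siControl culture 1 or 2 it was 0.33 (adjusted p = 0.0498) or 0.37 (adjusted p = 0.0300).

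For store-operated entry, all 5 genes had a log2 fold change below 0, as did 7589 of the 14996 genes tested. Of the 5, 3 were called lower, beside 21.2% of all tested genes. STIM2 (chr4:26857678-27025381), the sensor that responds to small losses of ER calcium, had 825, 790 and 725 reads in the siControl cultures against 519, 547 and 603 after siZEB1, a log2 ratio of -0.35 ± 0.080 (SE) with adjusted p = 0.00196. STIM1 (chr11:3854527-4093210), the principal sensor, had 1345, 1380 and 1095 reads against 1023, 1079 and 985. Its groups did not overlap in CPM, but at -0.17 (SE 0.071, adjusted p = 0.0685) it was not called. Without siControl culture 3 it was, at -0.21 (adjusted p = 0.0198).

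ORAI2 (chr7:102433106-102456821) was the most changed of the ORAI channels. It had 1368, 1492 and 1258 reads in the siControl cultures against 800, 738 and 722 after siZEB1, and went from 65.4 ± 1.15 to 39.5 ± 2.52 CPM (± SD, n = 3 per group), a log2 ratio of -0.73 ± 0.071 (SE) with adjusted p = 4.20e-07. ORAI1 (chr12:121626550-121642677), the main pore of store-operated entry, had 574, 675 and 688 reads in the siControl cultures against 504, 503 and 481 after siZEB1. Its log2 ratio was -0.25 ± 0.095 (SE) with adjusted p = 0.0466. The siZEB1 cultures lay close together, just below the lowest siControl culture. The ORAI1 call was lost with DESeq2, and with any culture but siControl culture 1 left out. Without siControl culture 3, its highest, the log2 fold change was -0.14 (adjusted p = 0.214), and without siControl culture 2 or siZEB1 culture 1, 2 or 3 the adjusted p was 0.0791, 0.0882, 0.0964 and 0.110. ORAI3 had 42 to 63 reads with siControl and 37 to 52 with siZEB1 and was not called at -0.11 (SE 0.21). Another annotated gene on the same strand covers 52.9% of its exonic bases, so its count is uncertain.

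**Figure D3:**
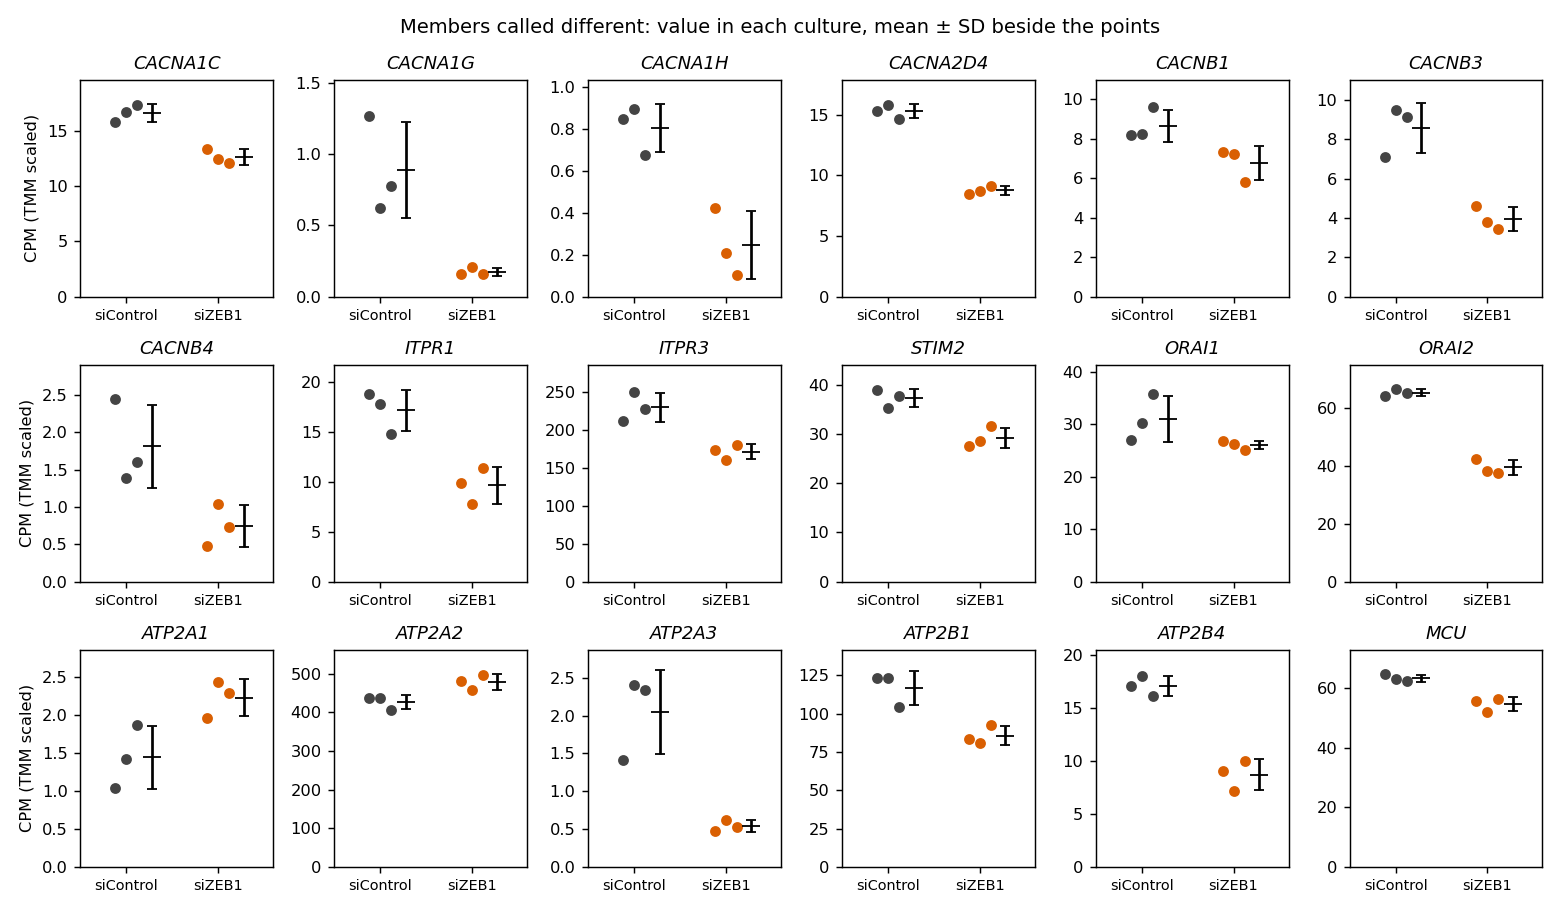
TMM-scaled CPM (y axis, from 0) in each culture for the 18 members called higher or lower, with siControl in grey, siZEB1 in orange and the mean ± SD beside the points. The groups are separate in each panel, widely for ORAI2, CACNA2D4 and ATP2B4 and narrowly for ORAI1 and ATP2A1.

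Among the ER pumps, ATP2A2 and ATP2A1 were called higher and ATP2A3 lower. ATP2A2 (chr12:110280756-110351093) encodes SERCA2, the pump found in most cells. It had 9292, 9806 and 7824 reads in the siControl cultures against 9089, 8776 and 9495 after siZEB1, and went from 427 ± 18.2 to 478 ± 20.1 CPM (± SD, n = 3 per group), a log2 ratio of 0.16 ± 0.056 (SE) with adjusted p = 0.0266. The groups did not overlap, but the call was lost without siControl culture 2, siControl culture 3, siZEB1 culture 1 or siZEB1 culture 3 (adjusted p = 0.0505, 0.0807, 0.0955 and 0.0791). ATP2A3 (chr17:3923870-3964464) encodes SERCA3, known from blood and epithelial cells. It had 30, 54 and 45 reads in the siControl cultures against 9, 12 and 10 after siZEB1, a log2 ratio of -1.91 ± 0.32 (SE) with adjusted p = 1.32e-04. ATP2A1 (chr16:28878405-28904509), the skeletal muscle SERCA1, had 22, 32 and 36 reads in the siControl cultures against 37, 47 and 44 after siZEB1. It was called higher at 0.64 (SE 0.25, adjusted p = 0.0497), and that call was kept only without siControl culture 3 (adjusted p = 0.0150) and lost without each other culture. With siControl culture 1, siControl culture 2 or siZEB1 culture 1, 2 or 3 left out the adjusted p was 0.194, 0.108, 0.0564, 0.140 and 0.0960. ATP2A3, which passed the filter through its siControl reads alone, kept its call with each culture left out.

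Both expressed plasma membrane pumps were called lower, beside 21.2% of all tested genes. ATP2B4 (chr1:203626561-203744081), PMCA4, had 363, 404 and 312 reads in the siControl cultures against 170, 137 and 191 after siZEB1, and went from 17.1 ± 0.928 to 8.70 ± 1.45 CPM (± SD, n = 3 per group), a log2 ratio of -0.98 ± 0.12 (SE) with adjusted p = 4.31e-06. ATP2B1 (chr12:89588049-89709300), the widely expressed PMCA1, had 2620, 2763 and 2007 reads in the siControl cultures against 1569, 1559 and 1773 after siZEB1. Its log2 ratio was -0.45 ± 0.078 (SE) with adjusted p = 1.81e-04. The groups did not overlap for either pump. ATP2B2 and ATP2B3, known from nervous tissue, had 0 to 3 reads in each culture.

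The Golgi pumps were not called by edgeR's test or by DESeq2. ATP2C1 (chr3:130850595-131016712), SPCA1, had 1623, 1737 and 1258 reads in the siControl cultures against 1412, 1363 and 1546 after siZEB1, a log2 ratio of 0.046 ± 0.078 (SE) with adjusted p = 0.671. ATP2C2 had 21 to 41 reads per culture and a log2 ratio of 0.37 ± 0.28 (SE) with adjusted p = 0.311, and the antisense gene ATP2C2-AS1 overlaps 26.2% of its exonic bases. The siControl and siZEB1 cultures overlapped for both.

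MCU (chr10:72692131-72887694), the pore of the mitochondrial uniporter, had 1374, 1408 and 1202 reads in the siControl cultures against 1051, 999 and 1076 after siZEB1, a log2 ratio of -0.21 ± 0.067 (SE) with adjusted p = 0.0175. The groups did not overlap. The call was lost without siControl culture 2, siZEB1 culture 1 or siZEB1 culture 2 (adjusted p = 0.0516, 0.0501 and 0.0968).

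To compare levels between genes, CPM were divided by the length of all exons of a gene in kilobases (kb), and each gene was given as its share of its family. ATP2A2 made up 98.1% ± 0.569 of the ATP2A family with siControl and 98.4% ± 0.224 with siZEB1 (SD, n = 3 each). ATP2A3 took 0.943% ± 0.268 and 0.223% ± 0.0391. The large fold change of ATP2A3 thus concerned a small part of the SERCA transcripts. ITPR3 led the IP3 receptors with 83.9% ± 2.65 and 77.5% ± 1.56, ITPR2 took 14.2% ± 2.43 and 21.1% ± 1.56, and ITPR1 took 1.91% ± 0.260 and 1.32% ± 0.170. The ITPR1 share depended on the length used, since its exons span 32454 bases of which 9124 are coding. Per kb of coding sequence it was 5.14% ± 0.648 with siControl and 3.53% ± 0.445 with siZEB1.

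Among the voltage-gated pores CACNA1C took 76.6% ± 3.57 of the family with siControl and 86.7% ± 1.18 with siZEB1, the T-type CACNA1G going from 8.07% ± 3.01 to 2.36% ± 0.434. ATP2B1 took 87.4% ± 0.662 and 90.9% ± 1.0 of the plasma membrane pumps, and ATP2C1 98.1% ± 0.0494 and 97.6% ± 0.852 of the Golgi pumps. STIM1 took 61.2% ± 1.73 and 64.2% ± 2.52 of the STIM pair. CACNA2D4 took 94.1% ± 1.74 and 93.5% ± 1.75 of the alpha2delta family. The leading gene of each of these families was the same in both groups and with the other measures of length.

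The order within the ORAI and CACNB families depended on the length used. Per kb of exon ORAI1 took 66.6% ± 3.17 with siControl and 72.3% ± 1.02 with siZEB1, and ORAI2 took 28.9% ± 2.56 and 22.4% ± 0.771. Per kb of coding sequence ORAI2 led with 70.2% ± 2.64 and 62.6% ± 1.03, because the ORAI2 exons span 11103 bases of which 762 are coding. ORAI2 took a smaller share with siZEB1 than with siControl on both measures. Per kb of exon CACNB1 and CACNB3 were close with siControl, at 47.5% ± 3.33 and 46.5% ± 4.04, whereas with siZEB1 CACNB1 took 58.0% ± 1.38 and CACNB3 33.5% ± 2.45. Per kb of coding sequence CACNB3 led with siControl, at 48.4% ± 4.93 against 40.1% ± 2.73.

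**Figure D4:**
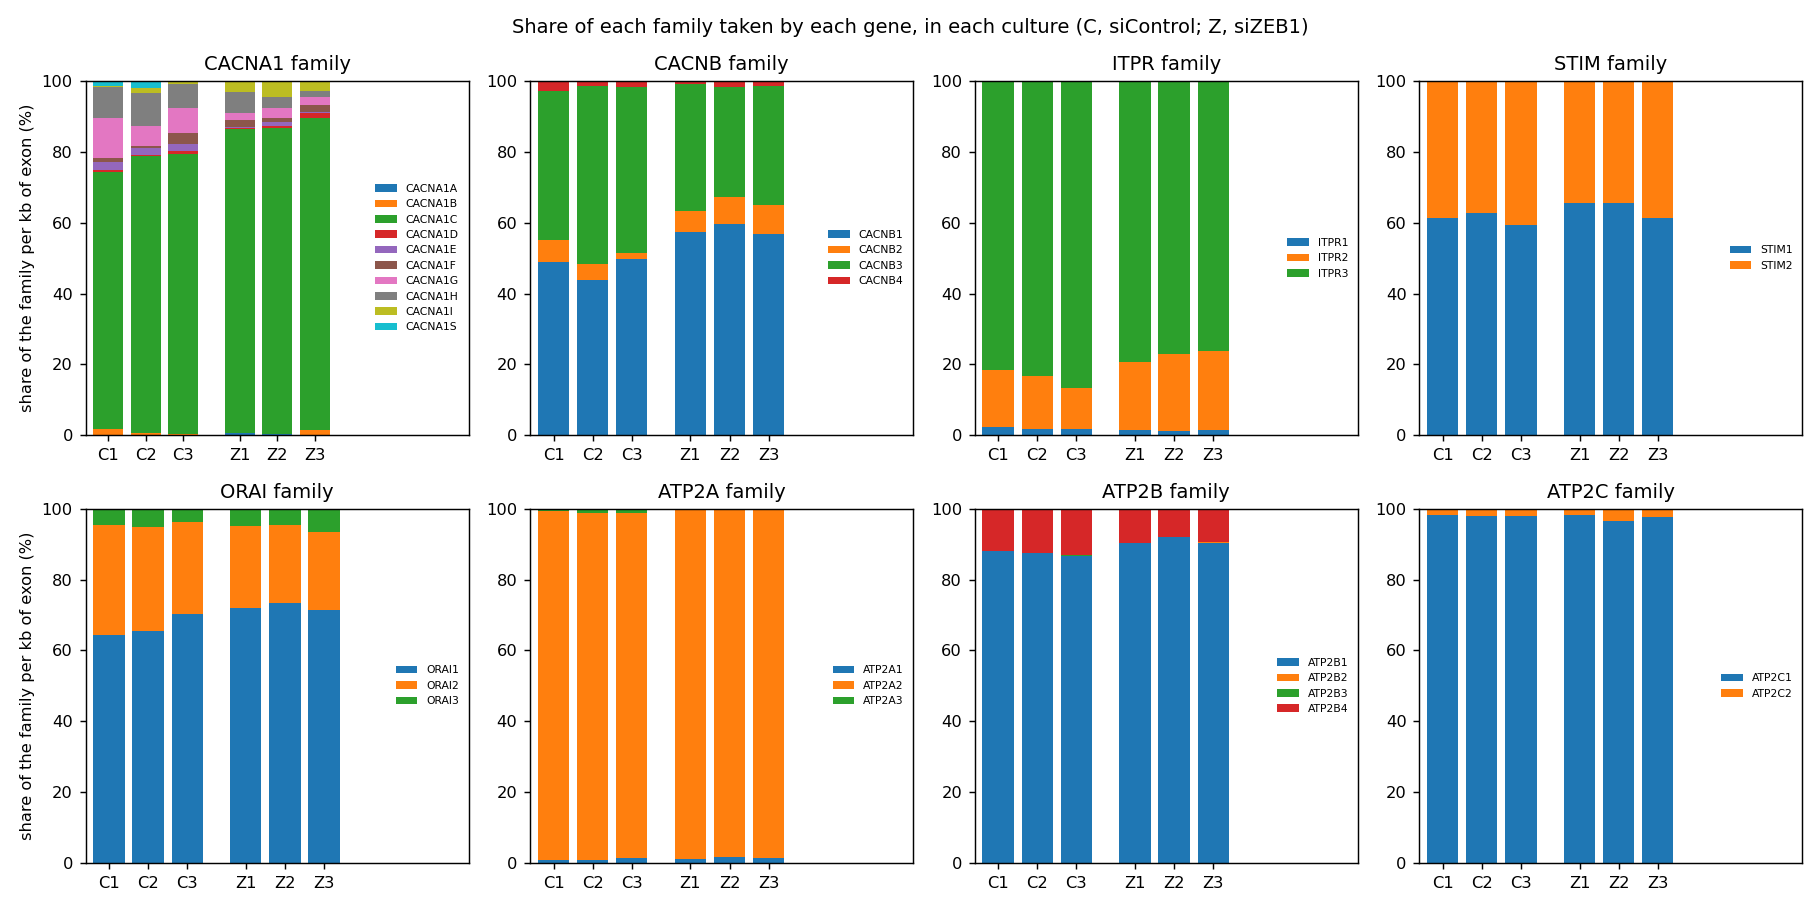
Share of each family taken by each gene (y axis, percent of the summed CPM per kb of exon) in each culture (x axis; C1 to C3, siControl; Z1 to Z3, siZEB1) for 8 families. ATP2A2 fills almost all of its family in every culture, and ITPR2 takes a larger part of the IP3 receptors with siZEB1 (21.1%) than with siControl (14.2%).

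ZEB1 is known to bind the E-box letters CAGGTG and CAGGTA, so the promoters of the members were searched for them on both strands (CACCTG and TACCTG). The windows were the 250 bases before each start in RefSeq (GRCh38.p14), where 30 of the 41 members matched, with 52 windows. CAGGTG stood in 15.4% of the members' windows and in 17.5% of all windows, and CAGGTA in 7.69% and 7.99%. Of the 18 tested members with a window, CACNB1, CACNB3, ORAI2 and ORAI3 held CAGGTG, and CACNB4 and STIM1 held CAGGTA. In ORAI2 and CACNB4, 3 of the 6 letters lie inside an annotated exon and 3 outside, at its edge. The other 4 are printed below up to any annotated exon, 5′ to 3′ on the gene's strand, with the match in capitals, since they are the sequences with the letters in promoter DNA outside exons. The match lay 169 bases before the start in CACNB1 (chr17:39197704-39197919, minus strand), 188 in CACNB3 (chr12:48818246-48818385, plus strand), 187 in ORAI3 (chr16:30948818-30949065, plus strand) and 178 in STIM1 (chr11:3854354-3854526, plus strand).
CACNB1: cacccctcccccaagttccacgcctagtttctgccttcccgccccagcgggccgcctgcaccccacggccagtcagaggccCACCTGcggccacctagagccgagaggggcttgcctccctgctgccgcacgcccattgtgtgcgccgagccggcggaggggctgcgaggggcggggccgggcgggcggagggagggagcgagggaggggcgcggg
CACNB3: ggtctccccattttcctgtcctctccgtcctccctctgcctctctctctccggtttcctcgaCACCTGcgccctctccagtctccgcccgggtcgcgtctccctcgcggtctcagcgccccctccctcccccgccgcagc
ORAI3: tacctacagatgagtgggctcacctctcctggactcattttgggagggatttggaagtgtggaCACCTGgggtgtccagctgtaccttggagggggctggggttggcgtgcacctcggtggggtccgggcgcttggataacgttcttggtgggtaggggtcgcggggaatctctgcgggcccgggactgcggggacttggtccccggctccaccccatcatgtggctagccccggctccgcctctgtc
STIM1: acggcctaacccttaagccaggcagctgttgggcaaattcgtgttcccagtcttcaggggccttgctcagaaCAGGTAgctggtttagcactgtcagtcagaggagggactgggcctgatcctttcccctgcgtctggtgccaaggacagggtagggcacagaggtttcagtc
Of the 6 tested members with a match, CACNB1, CACNB3, CACNB4 and ORAI2 were called lower, at -0.35, -1.12, -1.26 and -0.73, and ORAI3 and STIM1 were not called, at -0.11 and -0.17. Among all 26 tested members, 16 were called lower (61.5%), beside 21.2% of all tested genes. These 26 include the tested members with no window, which were not searched, so they are not a set without a match. A match is a description of letters only, and binding was not measured in these libraries.

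A 7-base sequence, GAACACA, was also looked up in 3′UTRs (GENCODE 29), since earlier results of these data had shown that transcripts with it were lower with siZEB1. For each gene only the transcript with the longest coding sequence was searched, and other 3′UTR forms were not. Of 12161 tested genes with a 3′UTR, 10.7% held it, with a median log2 fold change of -0.23 and 45.2% called lower, beside 0.0070 and 21.4% for the others. Because the sequence was picked from these same data, this difference is not separate evidence. The 3′UTRs with it were longer, with a median of 2849 bases against 862, and length was not accounted for. Among the 26 tested members, CACNA2D2, CACNB4 and MCU held it, or 11.5%. Their sites, with the 7 bases in capitals, lie at chr3:50363477-50363503 (minus strand), chr2:151837058-151837084 (minus strand) and chr10:72886612-72886638 (plus strand).
CACNA2D2: ctcccttgctGAACACAcacacacaca
CACNB4: tactttgttaGAACACAgaagagcatc
MCU: tctccctccaGAACACAaatcagaggg
CACNB4 and MCU were called lower, and 14 of the 23 tested members without the sequence in the 3′UTR searched were called lower too. Some of these 3′UTRs were short, with 34 bases in CACNA2D4 and 131 in ATP2A3, so other forms of these genes may hold the sequence.

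Genes that work with the members were taken from 10 lists of 148 names, of which 101 were tested. With siZEB1, 30 of them were lower and 19 higher, or 29.7% and 18.8%, beside 21.2% and 19.0% of all tested genes. The counts given below for each list are to be read beside these same shares of all tested genes. Their median log2 fold change was -0.062. The calls went in both directions in 6 of the lists. In the other 4, no gene was called higher by edgeR's test or by DESeq2, and at an unadjusted p under 0.05 only PLCE1 and TMCO1 were higher in these, names given after their values were seen.

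Upstream of the IP3 receptors, 5 of 11 tested phospholipase C genes were lower. PLCB3, which couples to G proteins, had 1083, 1236 and 1159 reads in the siControl cultures against 566, 573 and 573 after siZEB1, a log2 ratio of -0.89 ± 0.077 (SE) with adjusted p = 1.11e-07. PLCH1 fell by 0.88 on the log2 scale (adjusted p = 0.0255) and PLCD1 fell by 0.65 (adjusted p = 0.0144). PLCH1 lost its call without siControl culture 1 or 2 or siZEB1 culture 2 or 3 (adjusted p = 0.0533, 0.126, 0.0592 and 0.0986), and PLCD1 without siControl culture 3 (adjusted p = 0.0585). DESeq2 did not call PLCH1 either. Of the 5 genes listed under IP3 metabolism, INPP5A, a phosphatase that ends the IP3 signal, went from 845, 912 and 740 reads to 387, 376 and 405 (log2 ratio -0.96 ± 0.077 SE, adjusted p = 4.63e-08). The IP3 kinases moved apart, ITPKA falling by 0.66 on the log2 scale (adjusted p = 9.50e-05) and ITPKB rising by 0.47 (adjusted p = 3.29e-05). Thus 2 of these genes were lower and 2 higher, the other called gene being INPP1.

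Around STIM and ORAI, 5 of 13 tested regulators were lower and 3 higher. SARAF, which limits store-operated entry, had 2224, 2288 and 2006 reads in the siControl cultures against 2489, 2557 and 2522 after siZEB1, a log2 ratio of 0.35 ± 0.059 (SE) with adjusted p = 1.42e-04. ESYT2, a tether of ER and plasma membrane, had 6233, 6285 and 4860 reads against 2871, 2817 and 3120, a log2 ratio of -0.84 ± 0.067 (SE) with adjusted p = 3.91e-08. HOMER2, a scaffold protein, rose from 13, 28 and 28 reads to 73, 67 and 95 (1.90, SE 0.26, adjusted p = 1.66e-05), and the junction protein JPH2 rose by 0.67 (SE 0.094, adjusted p = 2.16e-05). Among 11 tested regulators of SERCA and IP3 receptors 3 were higher and 2 lower. IRAG1 (MRVI1), which holds IP3 receptors in check under cGMP kinase, had 269, 302 and 219 reads in the siControl cultures against 607, 545 and 580 after siZEB1, a log2 ratio of 1.27 ± 0.093 (SE) with adjusted p = 1.34e-08. ERP44, which binds IP3 receptors from inside the ER, rose by 0.36 (adjusted p = 1.76e-04) and GRINA fell by 0.43 on the log2 scale (adjusted p = 2.16e-04).

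In the list of luminal calcium-binding proteins, which is not limited to the ER, 6 of 11 tested genes were higher and 2 lower. HSPA5 (BiP) had 17936, 19317 and 15774 reads in the siControl cultures against 23108, 22923 and 22419 after siZEB1, a log2 ratio of 0.51 ± 0.048 (SE) with adjusted p = 3.31e-07. CALR, the main calcium buffer of the ER, was higher at 0.15 (SE 0.052, adjusted p = 0.0299), a call lost without siControl culture 1, siControl culture 2, siZEB1 culture 1 or siZEB1 culture 2 (adjusted p = 0.0506, 0.124, 0.151 and 0.112). RCN3 fell by 0.74 on the log2 scale (adjusted p = 0.0123) and NUCB1 by 0.38 (adjusted p = 0.00225), of which RCN3 lost its call without siControl culture 2 or siZEB1 culture 1 (adjusted p = 0.0690 and 0.0522).

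Around the uniporter, 3 of 9 tested genes were lower and 1 higher. MCUB, the pore paralog that dampens the uniporter, had 603, 595 and 568 reads in the siControl cultures against 224, 273 and 241 after siZEB1, a log2 ratio of -1.12 ± 0.093 (SE) with adjusted p = 5.96e-08. VDAC3, an outer membrane channel, had 2208, 2200 and 1905 reads against 990, 980 and 943, a log2 ratio of -0.98 ± 0.065 (SE) with adjusted p = 4.63e-09. The mitochondrial sodium/calcium exchanger SLC8B1 fell by 0.35 on the log2 scale (adjusted p = 0.0124), which was lost without siZEB1 culture 1 (adjusted p = 0.0599).

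Of other release and entry channels, 3 of 9 tested ryanodine, TPC and lysosomal channel genes were lower. TPCN1, an endolysosomal channel, fell by 0.69 on the log2 scale (SE 0.079, adjusted p = 2.29e-06), RYR1 by 0.65 (adjusted p = 0.0117) and TPCN2 by 0.45 (adjusted p = 0.0131, and 0.0797 without siZEB1 culture 2). Of 10 tested TRP, PIEZO and P2X channels 2 were called lower, or 20%, near the 21.2% of all tested genes. They were the mechanosensitive PIEZO1, which fell by 0.39 on the log2 scale (SE 0.064, adjusted p = 1.07e-04), and TRPV2, which fell by 0.27 (adjusted p = 0.00482). Of the exchanger list, only the potassium-dependent SLC24A1 and SLC24A3 were tested, since SLC8A1 and SLC8A2 lay below the filter and SLC8A3 had no row. Neither tested gene was called by either program, or reached an unadjusted p under 0.05 in edgeR's test. SLC24A3 was at 0.80 (SE 0.38, adjusted p = 0.105), and its groups did not overlap. It passed the filter through its siZEB1 reads alone. These names are given after their values were seen.

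Downstream, 6 of 20 tested calmodulin, calcineurin, NFAT and CaM kinase genes were lower and 4 higher. NFATC4 rose by 0.75 (SE 0.13, adjusted p = 1.56e-04). NFATC1 fell by 0.76 on the log2 scale (adjusted p = 0.00911, and 0.0532 without siZEB1 culture 1), and the kinase CAMKK1 fell by 0.77 (adjusted p = 0.00967, and 0.0678 without siControl culture 2). RCAN1, a target of calcineurin and NFAT that is often read as a sign of their activity, had 426, 425 and 319 reads in the siControl cultures against 316, 282 and 329 after siZEB1. It was not called at -0.20 (SE 0.10, adjusted p = 0.131), and its groups overlapped. Without siControl culture 3 it was called at -0.27 (adjusted p = 0.0307).

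**Figure D5:**
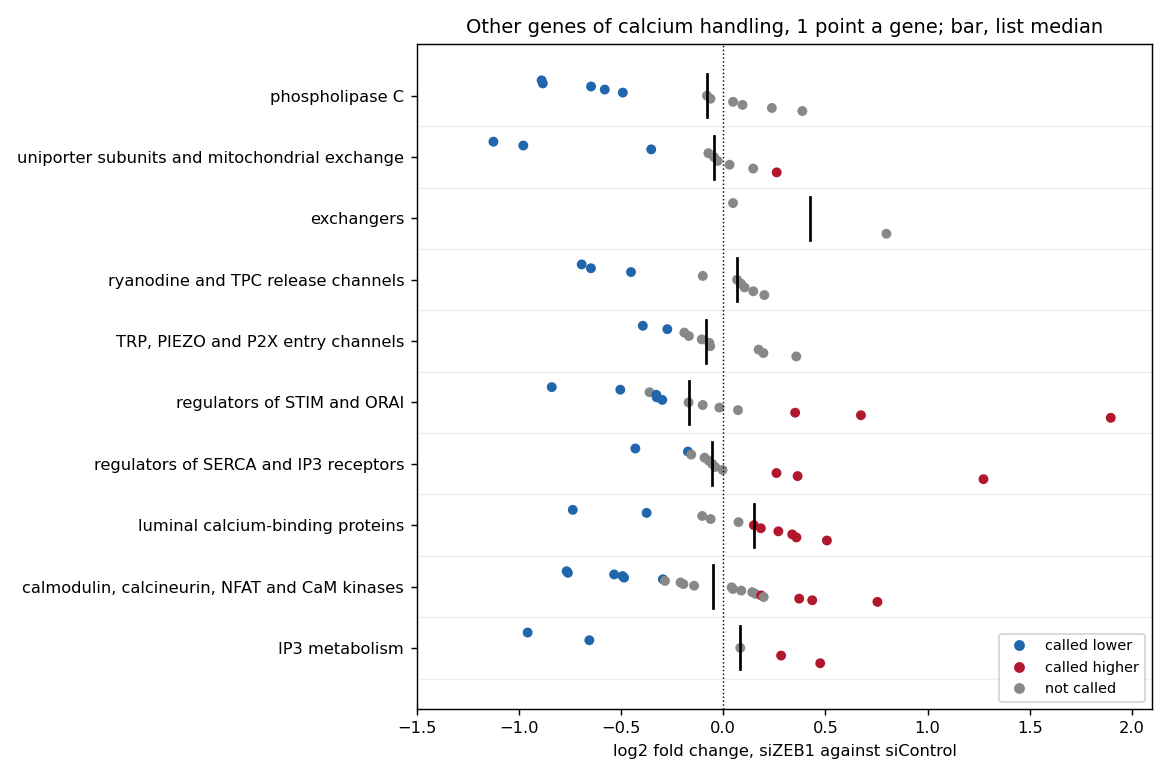
Log2 fold change of siZEB1 against siControl (x axis) for the tested genes of 10 lists of calcium handling genes (y axis), with 1 point a gene, blue where called lower, red where called higher and grey where not called, and a bar at each list's median. The phospholipase C list has 5 blue points and no red one, and the luminal calcium-binding proteins have 6 red and 2 blue points.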

How the data were processed

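RNA from 6 SW480 cultures (siControl and siZEB1, 3 each) was sequenced, and the authors deposited raw counts of reads per Ensembl gene, not normalized. The submitters' processing notes name Trimmomatic, HISAT2, SAMtools, featureCounts and hg38. The annotation, strand setting and program versions are not given in the sources used here. Of 32029 genes, 31059 matched GENCODE 29, which gave coordinates and lengths. Columns of other samples numbered 0.

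Genes were kept by filterByExpr, scaled by TMM and compared by edgeR's quasi-likelihood test (edgeR 4.0.16, R 4.3.3), as a two-sided test whose p-values were adjusted by Benjamini-Hochberg across all 14996 genes kept. The depth was 19040636 to 22357633 counts per culture. The biological coefficient of variation, from the common dispersion of the fit, was 6.58%. The script was tested on simulated data. Calls were made at an adjusted p under 0.05. Fold changes are log2 of siZEB1 over siControl, with SE, and CPM are TMM scaled. Alternatives were DESeq2 1.42.0, other scalings and filters, a block for the replicate number, leaving out each culture, other thresholds and other gene lengths.

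The members and all gene lists were chosen with earlier results of these data known. Named genes were the called members, the most abundant of each family, the most changed called genes of each list, 3 at most, besides RCAN1, CALR and SARAF. A further gene of the uniporter list is not reported here and is left out of the list counts. Python 3.11.15 with pandas 2.3.3 and matplotlib 3.10.9 made the tables and figures.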

Additional observations from a re-analysis of the deposited data

How the results depend on the processing

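Each tested member was refitted under up to 12 alternatives, 306 fits in all. Of the 18 called members, 13 kept their call under every alternative run on them, 5 lost it under at least 1 (CACNB1, ORAI1, ATP2A1, ATP2A2 and MCU), and none changed direction. The 13 include CACNA1G, CACNA1H, CACNB4 and ATP2A3, which passed the filter through their siControl reads alone. These genes were not in the fit with at least 10 reads required in every culture. ITPR2 and STIM1 were called under some of the alternatives. Estimates of uncalled genes changed sign with a culture left out: CACNB2 ranged from -0.16 (without siControl culture 3) to 0.48, ORAI3 from -0.26 to 0.021 (without siControl culture 2) and ATP2C1 from -0.030 (without siControl culture 3) to 0.091, with -0.0036 without siZEB1 culture 3. Other scalings moved the median of all genes by less than 0.1.

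The 16 members called lower became 9 at a fold change over 1.5 with p under 0.05 and 7 with p under 0.001. They were 13 to 16 with a culture left out, beside 17.2% to 21.5% of all genes. The 2 called higher became 1 with DESeq2, total library size or the rule of fold change over 1.5 with p under 0.05, and 0 with the stricter fold rule or an adjusted p under 0.01. With a culture left out they were 0 to 2, beside 15.0% to 19.1% of all genes. Of the pathway genes, 19 higher and 30 lower became 4 and 13 with p under 0.05, and 4 and 7 with p under 0.001, at a fold change over 1.5. Of all tested genes, 7.21% were higher and 9.35% lower under the first of these rules, and 4.52% and 6.70% under the second. With a culture left out the pathway counts were 16 to 20 higher and 23 to 32 lower, beside 15.0% to 19.1% and 17.2% to 21.5% of all genes.

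Same-numbered cultures did not deviate together (correlations -0.052, -0.088 and -0.20), and differently numbered ones had correlations from -0.071 to 0.14. With 3 cultures per group, these values cannot tell whether same-numbered cultures were handled together. With the replicate block, 13 members were lower and 0 higher in edgeR's test, and 29 pathway genes were lower and 15 higher, beside 17.9% and 15.3% of all tested genes. By coding length 15 and by longest transcript 17 of 18 family leaders remained. At this depth, members with under 10 reads per culture cannot show moderate differences.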
